A study of Mus musculus with 13 samples.

Results

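The receptors described here are 7 G protein-coupled or natriuretic peptide receptors that restrain or tune fat breakdown: Hcar1, Hcar2, Ptger3, Adora1, Adra2a, Npr1 and Npr3. They were chosen by gene symbol, and 6 of the 7 have a row among the 11761 rows of the deposited expression table. Adra2a, the alpha-2A adrenergic receptor gene, has none and was not analysed here. The study compared fat cells of obese and lean mice. All groups came from Adipoq-NuTRAP mice on the C57BL/6J background, in which, as the name says, the Adipoq gene directs a tag to fat cells: ribosomes carry GFP and nuclei mCherry. The 2 groups used are epididymal white fat after a high-fat diet (HFD) for 10 weeks, with 3 libraries, and after chow for the same 10 weeks, with 3 libraries. The sources used here give neither the animals' age nor what the HFD contained. No label ties a library to an animal, so a p-value reflects library-to-library spread, part or all of which could be technical. RNA was pulled down with the GFP tag from homogenised whole fat, so that RNA of other cells can be carried along.

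Fat cells break stored triglyceride down when cyclic AMP (cAMP) rises and activates protein kinase A, as after catecholamine binding to beta-adrenergic receptors. Receptors coupled to the inhibitory G protein Gi lower cAMP and so restrain lipolysis: Hcar1 is the lactate receptor, Hcar2 the receptor of the ketone body beta-hydroxybutyrate and of niacin, Ptger3 a prostaglandin E2 receptor, Adora1 an adenosine receptor and Adra2a a catecholamine receptor. Natriuretic peptides of the heart act through another messenger: Npr1 is a guanylyl cyclase that makes cyclic GMP (cGMP) and promotes lipolysis in human fat cells, whereas Npr3 has no cyclase domain and takes the peptides up for degradation.

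Hcar1 and Hcar2 are neighbours on mouse chromosome 5 by RefSeq (GRCm38.p6, which is mm10). Hcar1 lies at chr5:123876739-123880003 and Hcar2 at chr5:123863570-123865516, with a gap of 11222 bases and 0 annotated genes between them. Ptger3 lies at chr3:157566821-157644758, Adora1 at chr1:134199215-134235457, Npr1 at chr3:90450591-90465928 and Npr3 at chr15:11839896-11907837. Of these 6 genes, Adora1 overlaps the annotated span of Mybph and Npr3 that of Gm5144. Neither partner is among the listed genes, and reads of overlapping exons cannot be told apart without strand. RefSeq start windows were found for 6 of the 7 receptors, all but Hcar2. The 250 bases before the annotated start are printed for Hcar1, Ptger3 and Adora1, the receptor genes with the strongest differences between diets, from GRCm38.p6, 5′ to 3′ on the gene's strand (chr5:123880004-123880253, minus; chr3:157566626-157566875, plus; chr1:134235458-134235707, minus). Capitals mark the GC box GGGCGG, a short motif bound by factors of the Sp and KLF families, on either strand.
Hcar1: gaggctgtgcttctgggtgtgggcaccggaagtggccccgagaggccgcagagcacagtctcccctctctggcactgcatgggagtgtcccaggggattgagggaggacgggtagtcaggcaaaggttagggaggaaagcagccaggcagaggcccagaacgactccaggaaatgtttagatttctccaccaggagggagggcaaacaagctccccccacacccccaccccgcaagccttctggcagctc
Ptger3: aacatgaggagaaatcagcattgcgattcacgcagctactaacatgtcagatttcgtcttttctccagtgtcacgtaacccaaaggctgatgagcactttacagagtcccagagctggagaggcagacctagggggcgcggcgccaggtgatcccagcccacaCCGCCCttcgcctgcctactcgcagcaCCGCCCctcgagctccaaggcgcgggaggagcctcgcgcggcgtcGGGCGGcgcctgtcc
Adora1: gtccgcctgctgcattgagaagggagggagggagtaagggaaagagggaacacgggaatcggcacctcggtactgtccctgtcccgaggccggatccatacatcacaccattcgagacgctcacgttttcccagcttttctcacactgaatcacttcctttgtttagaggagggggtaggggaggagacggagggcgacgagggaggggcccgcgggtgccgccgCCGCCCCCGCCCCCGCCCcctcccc
Ptger3 holds the GC box at 3 places, beginning 87, 60 and 15 bases before the start, and Adora1 at 3 adjoining places, beginning 25, 19 and 13 bases before it. The Ptger3 start used for this window lies inside the annotated span of the gene given above, downstream of its first base, so the end of the window, with the GC box nearest to that start, is within the span. A further Adora1 window, at another annotated start, holds none, and neither do those of Hcar1 and Npr3, while Npr1 and Adra2a hold the motif. The motif is present in 32.7% of 32851 such windows. The nuclear receptor half-site AGGTCA (14.0% of windows), the cAMP response element half-site TGACGT (6.47%) and the SMAD-binding element GTCTAGAC (0.167%) were searched on both strands and have no match in the windows of the 6 receptors. None of these motifs contains another. These are matches of letters and not measured binding sites, and which start the listed transcripts use is not known here.

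Under HFD the receptor genes went in opposite directions. Ptger3 and Adora1 were higher, Hcar1 and Hcar2 were lower, and Npr1 and Npr3 did not pass the test. Values are CPM, read counts scaled to each library's effective size, and fold changes are HFD minus chow on log2(CPM + 1), tested with limma over the 11643 genes averaging 1 CPM or more, at a Benjamini-Hochberg adjusted p below 0.05. Of the 6 receptor genes, 2 were higher and 2 lower by this rule, where 35.1% of all tested genes passed (19.1% higher and 16.0% lower in HFD). The diets did not overlap for 5 of the 6 receptor genes, where this held for 50.2% of tested genes. The median log2 fold change of the 6 receptor genes was 0.35, and that of all tested genes was -0.004. Effective library sizes, in 1e6 reads, were 33.7, 32 and 39.4 in HFD replicates 1, 2 and 3, and 23.2, 32.4 and 7.43 in chow replicates 1, 2 and 3. Chow replicate 3 is thus the shallowest, and the fewest reads behind any receptor value, 141 for Npr1, were in it.

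**Figure D1:**
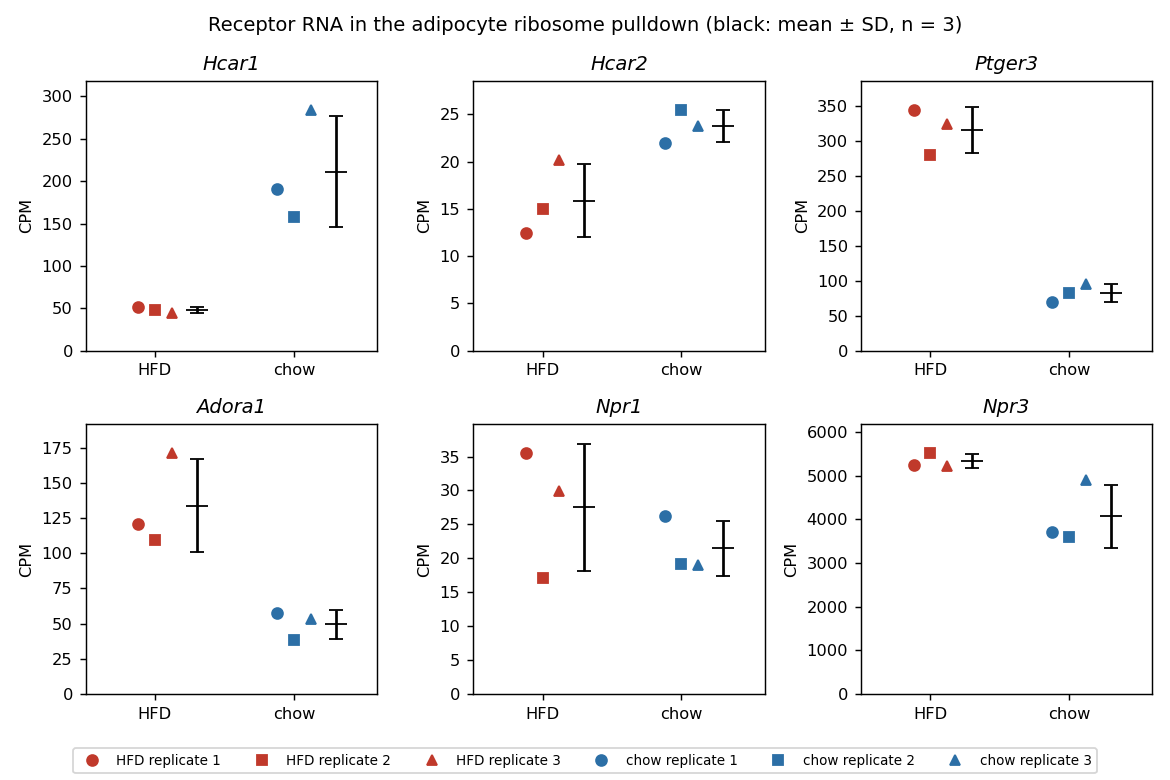
CPM (vertical axes, each from 0) of the 6 listed receptor genes in each HFD library (red) and chow library (blue), with the mean and SD in black. The diets do not overlap for Hcar1, Hcar2, Ptger3, Adora1 and Npr3, and overlap for Npr1.

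Hcar1, the lactate receptor gene, had 51.3, 48.5 and 44.0 CPM in HFD replicates 1, 2 and 3, against 191, 158 and 284 CPM in chow replicates 1, 2 and 3. All HFD libraries lay well below all chow libraries, and the HFD libraries were close to each other. The mean was 47.9 ± 3.66 CPM in HFD and 211 ± 65.5 CPM in chow (SD, n = 3 each), a log2 fold change of -2.07 (SE 0.20, limma adjusted p 9.54e-05). Hcar1 ranked 56 from the lowest of the 11643 tested fold changes. The call stood under each of the 17 alternative settings tried, with leave-one-out values from -2.26 to -1.84.

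Its neighbour Hcar2, the hydroxybutyrate and niacin receptor gene, had 12.5, 15.03 and 20.1 CPM in HFD replicates 1, 2 and 3, against 22.0, 25.5 and 23.8 CPM in chow replicates 1, 2 and 3. The highest HFD library was just under the lowest chow library. The mean was 15.9 ± 3.89 CPM in HFD and 23.7 ± 1.72 CPM in chow (SD, n = 3 each), a log2 fold change of -0.575 (SE 0.19, limma adjusted p 0.04). This call is at the edge of the threshold: it was lost with libraries scaled to equal totals (adjusted p 0.1), with the median adipocyte marker set equal between libraries (-0.23, adjusted p 0.513), and without chow replicate 1, 2 or 3 or HFD replicate 1 or 2 (adjusted p 0.0543, 0.107, 0.0741, 0.125 and 0.105). Whether the falls of Hcar1 and Hcar2 differ in size was not tested.

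Ptger3, the prostaglandin E2 receptor gene, moved the other way. It had 345, 280.1 and 324 CPM in HFD replicates 1, 2 and 3, against 70.0, 83.3 and 95.01 CPM in chow replicates 1, 2 and 3. Every HFD library was above every chow library. The mean was 316 ± 33.1 CPM in HFD and 82.8 ± 12.5 CPM in chow (SD, n = 3 each), a log2 fold change of 1.93 (SE 0.15, limma adjusted p 2.64e-05) and rank 403 from the highest of all tested genes.

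Adora1, the adenosine receptor gene, had 121, 109 and 171 CPM in HFD replicates 1, 2 and 3, against 57.3, 38.1 and 53.1 CPM in chow replicates 1, 2 and 3. The diets did not overlap, with HFD replicate 3 the highest and chow replicate 2 the lowest library. The mean was 134 ± 33.0 CPM in HFD and 49.5 ± 10.1 CPM in chow (SD, n = 3 each), a log2 fold change of 1.41 (SE 0.20, limma adjusted p 0.000841). Both rises stood under each of the 17 alternative settings, with leave-one-out values of 1.81 to 2.03 for Ptger3 and 1.22 to 1.54 for Adora1.

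Set against each other within a library, where the scaling of libraries cancels, the log2 ratio of Ptger3 to Hcar1 CPM was 2.75, 2.53 and 2.88 in HFD replicates 1, 2 and 3, against -1.45, -0.92 and -1.58 in chow replicates 1, 2 and 3. It was above 0 in each HFD library and below 0 in each chow library; gene length is not taken into account, so only its difference between diets is read. The difference was 4.04 on the log2 scale, or 16.4-fold. The pair was chosen with its directions known, and the exact two-sided permutation test gave p 0.1, the smallest that 3 against 3 libraries allow (0.2 adjusted over the 2 ratios tested).

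**Figure D2:**
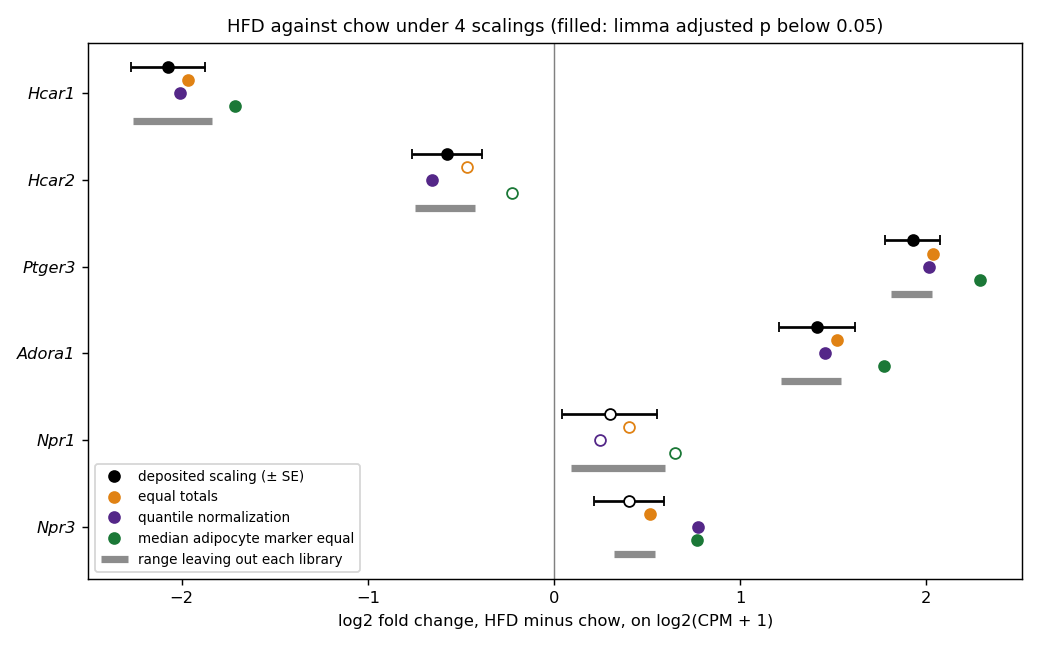
Log2 fold change of HFD minus chow (horizontal axis) for the 6 receptor genes under the deposited scaling (black, with SE) and 3 other scalings, filled where the limma adjusted p was below 0.05; grey bars span the values with 1 library left out. Hcar1, Ptger3 and Adora1 keep their side of 0 and their call, Hcar2 and Npr3 change call with the scaling, and Npr1 has no call under any of them.

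Of the natriuretic peptide receptors, the guanylyl cyclase gene Npr1 had 35.5, 17.1 and 29.9 CPM in HFD replicates 1, 2 and 3, against 26.2, 19.2 and 19.0 CPM in chow replicates 1, 2 and 3. HFD replicate 2 was the lowest of all 6 libraries and HFD replicate 1 the highest, so the diets overlap. The mean was 27.5 ± 9.40 CPM in HFD and 21.5 ± 4.09 CPM in chow (SD, n = 3 each). The log2 fold change of 0.30 (SE 0.26, limma adjusted p 0.394) had a 95% confidence interval of -0.28 to 0.87, which leaves room for no change and for a rise of nearly 1 on the log2 scale.

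The clearance receptor gene Npr3 was deeply sampled, with at least 36435 reads in each library. It had 5257, 5518 and 5221 CPM in HFD replicates 1, 2 and 3, against 3717, 3591 and 4905 CPM in chow replicates 1, 2 and 3. All HFD libraries lay above all chow libraries, although chow replicate 3 came near them. The mean was 5332 ± 162 CPM in HFD and 4071 ± 725 CPM in chow (SD, n = 3 each). The log2 fold change of 0.40 (SE 0.19, limma adjusted p 0.127; 95% confidence interval -0.02 to 0.83) did not pass under the deposited scaling. It passed without chow replicate 3 (0.54, adjusted p 0.0172), with equal totals (0.51, adjusted p 0.0184), with quantile normalization (0.78, adjusted p 0.00345) and with the median adipocyte marker set equal (0.77, adjusted p 0.00141). The last scaling moves the median of all genes to 0.34, equal totals to 0.10 and quantile normalization to -0.07. The same scalings move the split of called genes: 54.4% of them were higher in HFD under the deposited scaling, 65.4% with equal totals, 46.4% with quantile normalization and 87.5% with the adipocyte marker scaling.

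The log2 ratio of Npr1 to Npr3 CPM was -7.21, -8.33 and -7.45 in HFD replicates 1, 2 and 3, against -7.15, -7.55 and -8.01 in chow replicates 1, 2 and 3. The diets overlap widely. The means were -7.66 ± 0.59 in HFD and -7.57 ± 0.43 in chow (SD, n = 3 each), a difference of -0.09 (exact two-sided permutation p 0.9), and the difference was 0.24 without HFD replicate 2 and 0.12 without chow replicate 1. A difference between diets in this ratio was not detectable with these libraries. Npr2, the receptor gene for C-type natriuretic peptide, was 84.4, 57.7 and 65.3 CPM in HFD replicates 1, 2 and 3, against 119, 89.3 and 108 CPM in chow replicates 1, 2 and 3. All HFD libraries were below all chow libraries (log2 fold change -0.61, SE 0.17, limma adjusted p 0.0213), but the call was lost with equal totals (adjusted p 0.0501), with the adipocyte marker scaling (-0.25, adjusted p 0.338) and without HFD replicate 2 or 3 or chow replicate 1 or 3 (adjusted p 0.082, 0.074, 0.0612 and 0.0526).

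**Figure D3:**
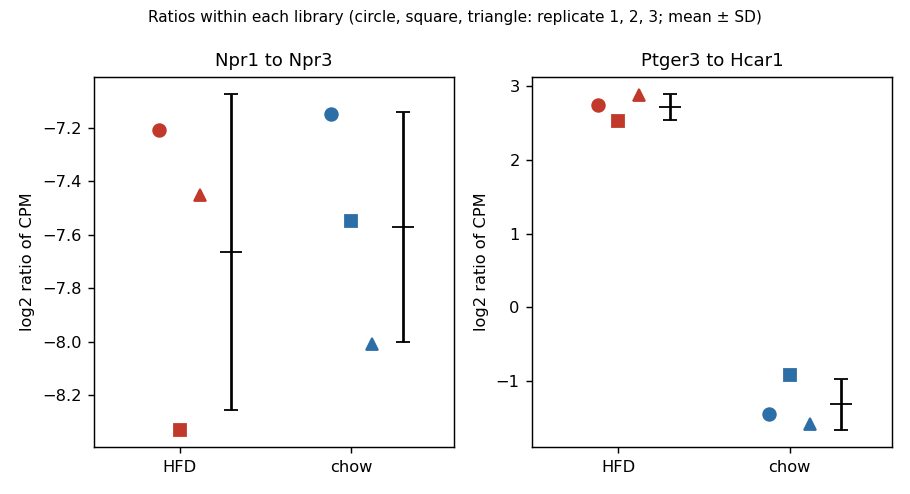
Log2 ratio of CPM (vertical axis) within each HFD library (red) and chow library (blue) for Npr1 to Npr3 and for Ptger3 to Hcar1, with mean and SD in black. The Npr1 to Npr3 ratio overlaps between diets; the Ptger3 to Hcar1 ratio is above 0 in HFD and below 0 in chow.

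Adipocyte markers were present in every library, and the markers of several other cell types moved with the diet. As background for the counts of markers, 19.1% of all tested genes were higher and 16.0% lower in HFD. The 18 adipocyte markers summed to 28842 to 33264 CPM in HFD and 35130 to 55444 CPM in chow, with 2 higher and 10 lower. Of 18 macrophage markers 15 were higher and 1 lower (383 to 565 CPM in HFD, 160 to 204 CPM in chow), of 14 endothelial markers 13 were higher (189 to 384 CPM in HFD, 40.3 to 108 CPM in chow), and of 11 tested mural cell markers 10 were higher (1538 to 1942 CPM in HFD, 1065 to 1206 CPM in chow). Mcam, the mural marker that did not pass, held 843 to 936 CPM of the mural sum in HFD and 955 to 1075 CPM in chow. Of 14 fibroblast and progenitor markers 5 were higher and 1 lower (2304 to 4603 CPM in HFD, 2748 to 3973 CPM in chow), of 9 tested mesothelial markers 4 were higher (55.3 to 162 CPM in HFD, 23.1 to 37.2 CPM in chow), and all 3 tested nerve and Schwann cell markers were higher. Of the macrophage, endothelial, mural and fibroblast markers listed, 0 stood at the lowest value of the table in any library. Of 11 neutrophil and mast cell markers 6 were listed and 2 tested, and both were higher (16.7 to 31.3 CPM in HFD, 2.60 to 5.95 CPM in chow, summed over the listed ones). Of 12 lymphocyte markers 2 were listed and 1 tested, which did not pass, and of 7 epididymis markers 0 were listed. Npr1, which endothelial cells also express, and the endothelial sum were both highest in replicate 1 of each diet. Ptger3, Adora1 and Npr3 are likewise expressed outside fat cells. The part of these cell types in the receptor differences was not tested, and in a pulldown from whole fat a change in the number of cells of a type and in RNA per cell cannot be told apart.

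**Figure D4:**
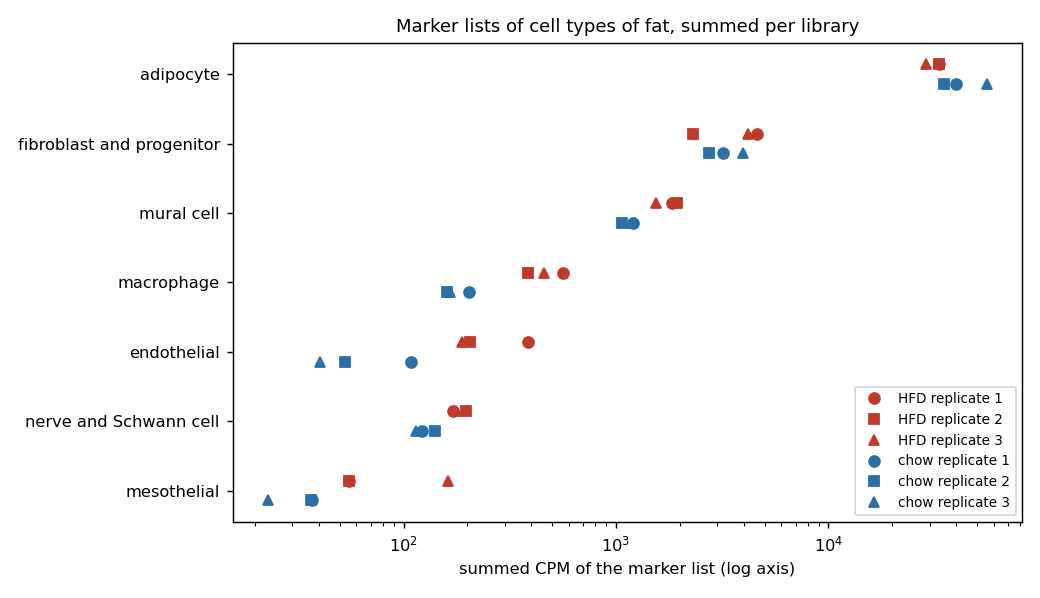
Summed CPM (horizontal log axis) of 7 marker lists in each HFD library (red) and chow library (blue). Adipocyte sums lie between 28842 and 55444 CPM, and the macrophage, endothelial and mural sums are higher in all HFD libraries than in any chow library.

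Around the receptors, 99 genes of 11 lists (ligand supply and clearance, related receptors, G proteins and the enzymes of cAMP and cGMP) were tested, of which 40 were higher and 17 lower in HFD. Among all tested genes 19.1% were higher and 16.0% lower, the background for these counts and for those of each list below. The lists hold genes typical of macrophages, endothelium and mural cells too. With the adipocyte marker scaling 50 were higher and 9 lower. At a mean of at least 5 CPM 25 were higher. That filter leaves the genes under it untested, here and in the lists below, so its counts are of fewer genes.

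Of 11 tested genes that make or remove prostaglandin E2, the ligand of Ptger3, 5 were higher, 1 was lower and 5 did not pass (median log2 fold change 0.57). Ptgs2, a further gene chosen for this list, has no row and was not tested. Without chow replicate 1 or 3 the lower genes were 2. Ptges, a terminal synthase gene, was named after its values were seen. It had 88.0, 78.2 and 58.9 CPM in HFD replicates 1, 2 and 3, against 32, 23.1 and 33.6 CPM in chow replicates 1, 2 and 3, with no overlap (1.31, limma adjusted p 0.000928). The terminal synthase genes Ptges2 (23.4 CPM in HFD and 29.0 CPM in chow, -0.28, limma adjusted p 0.246) and Ptges3 (51.8 CPM in HFD and 72.9 CPM in chow, -0.47, limma adjusted p 0.0542) leaned the other way and did not pass. Hpgd, the dehydrogenase gene that starts prostaglandin inactivation, had 55.3, 79.9 and 62.7 CPM in HFD, against 212, 280.1 and 186 CPM in chow, so all HFD libraries were below all chow libraries (-1.76, limma adjusted p 0.000143). The prostaglandin uptake transporter gene Slco2a1 averaged 13.6 ± 2.57 CPM in HFD and 1.78 ± 0.67 CPM in chow (SD, n = 3 each; log2 fold change 2.40, limma adjusted p 0.000133), and Ptgr1, a reductase gene acting on prostaglandin metabolites, 23.2 ± 4.65 CPM in HFD and 7.82 ± 2.26 CPM in chow (1.47, limma adjusted p 0.00146). The other receptor genes for this ligand, Ptger2 (2.19 CPM in HFD and 0.327 CPM in chow) and Ptger4 (3.32 CPM in HFD and 0.93 CPM in chow), were low and higher in HFD, calls that quantile normalization ended (limma adjusted p 0.0917 and 0.153). The Ptger2 call was also lost on the deposited log2 CPM (limma adjusted p 0.075).

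For adenosine, the ligand of Adora1, 4 of 10 genes of supply and clearance were higher and 0 lower (median 0.31), and 1 of 10 was lower with quantile normalization and without chow replicate 1 or 3. Entpd1, which breaks extracellular ATP down towards adenosine, averaged 9.16 ± 1.19 CPM in HFD and 2.01 ± 0.30 CPM in chow (SD, n = 3 each; log2 fold change 1.75, limma adjusted p 0.000329). Alpl, the tissue-nonspecific alkaline phosphatase gene, had 2.48, 4.66 and 6.82 CPM in HFD replicates 1, 2 and 3, and at most 0.483 CPM in chow (2.12, limma adjusted p 0.00178). Both are also typical of other cells of fat. Adk, the adenosine kinase gene, stood at 103 ± 15.5 CPM in HFD and 109 ± 7.89 CPM in chow (log2 fold change -0.09, limma adjusted p 0.66). Nt5e, a further gene of this list, averaged 2.38 ± 0.20 CPM in HFD and 4.68 ± 3.14 CPM in chow. Its diets overlapped and it did not pass (-0.57, limma adjusted p 0.308). Adk and Nt5e were named after their values were seen.

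For lactate, the ligand of Hcar1, 0 of 7 genes were higher and 2 lower (median -0.32). These were Slc16a7, a monocarboxylate transporter gene, with 32.7 ± 1.13 CPM in HFD and 53.7 ± 6.81 CPM in chow (-0.69, limma adjusted p 0.00469), and Ldhd, the D-lactate dehydrogenase gene, with 57.2 ± 7.20 CPM in HFD and 92.5 ± 9.21 CPM in chow (-0.69, limma adjusted p 0.00541; SD, n = 3 each). Both calls were lost with the adipocyte marker scaling. Ldha, which makes lactate from pyruvate, had 639, 630.3 and 685 CPM in HFD replicates 1, 2 and 3, against 534, 568 and 826 CPM in chow replicates 1, 2 and 3, with overlap (0.05, limma adjusted p 0.859; named after its values were seen). For the ligand of Hcar2, all 4 tested genes of hydroxybutyrate supply and use were lower (median -0.82). Slc16a6, a hydroxybutyrate exporter gene, averaged 7.08 ± 0.88 CPM in HFD and 13.4 ± 1.87 CPM in chow (-0.83, limma adjusted p 0.00789; SD, n = 3 each). With the adipocyte marker scaling 0 of the 4 passed.

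Of the natriuretic peptide genes Nppa, Nppb and Nppc none was listed. Of 4 tested processing genes, 1 was lower: Pcsk6, a proprotein convertase gene, with 107 ± 30.4 CPM in HFD and 219 ± 27.1 CPM in chow (SD, n = 3 each; -1.05, limma adjusted p 0.00315). Mme, which encodes the peptide-degrading enzyme neprilysin, had 108, 111 and 163 CPM in HFD replicates 1, 2 and 3, against 98.4, 127 and 99.7 CPM in chow replicates 1, 2 and 3, and did not pass (0.22, limma adjusted p 0.379; named after its values were seen). The cGMP list had 5 higher and 1 lower of 10 tested genes (median 0.66). It holds subunit genes of soluble guanylyl cyclase, a source of cGMP other than Npr1, beside genes that act after cGMP. Of these subunit genes, Gucy1a2 and Gucy1b3 were among the higher ones. The higher genes were 2 without HFD replicate 1, and 3 without chow replicate 2 or at a mean of at least 5 CPM. Pde2a, a phosphodiesterase that cGMP stimulates and that degrades both messengers, had 137, 133 and 223 CPM in HFD replicates 1, 2 and 3, against 10.2, 5.50 and 7.67 CPM in chow replicates 1, 2 and 3. Its log2 fold change of 4.23 (SE 0.25, limma adjusted p 7.93e-06) ranked 16 from the highest of all tested genes. Pde1a, another cyclic nucleotide phosphodiesterase gene, was lower, with 47.6 ± 7.73 CPM in HFD and 128 ± 8.78 CPM in chow (-1.42, limma adjusted p 0.000135). Gucy1a2, a soluble guanylyl cyclase subunit gene, had 9.01 ± 2.73 CPM in HFD and 2.13 ± 1.72 CPM in chow (1.86, limma adjusted p 0.0137), a call lost without HFD replicate 1 (adjusted p 0.0563) and on the deposited log2 CPM (adjusted p 0.052).

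**Figure D5:**
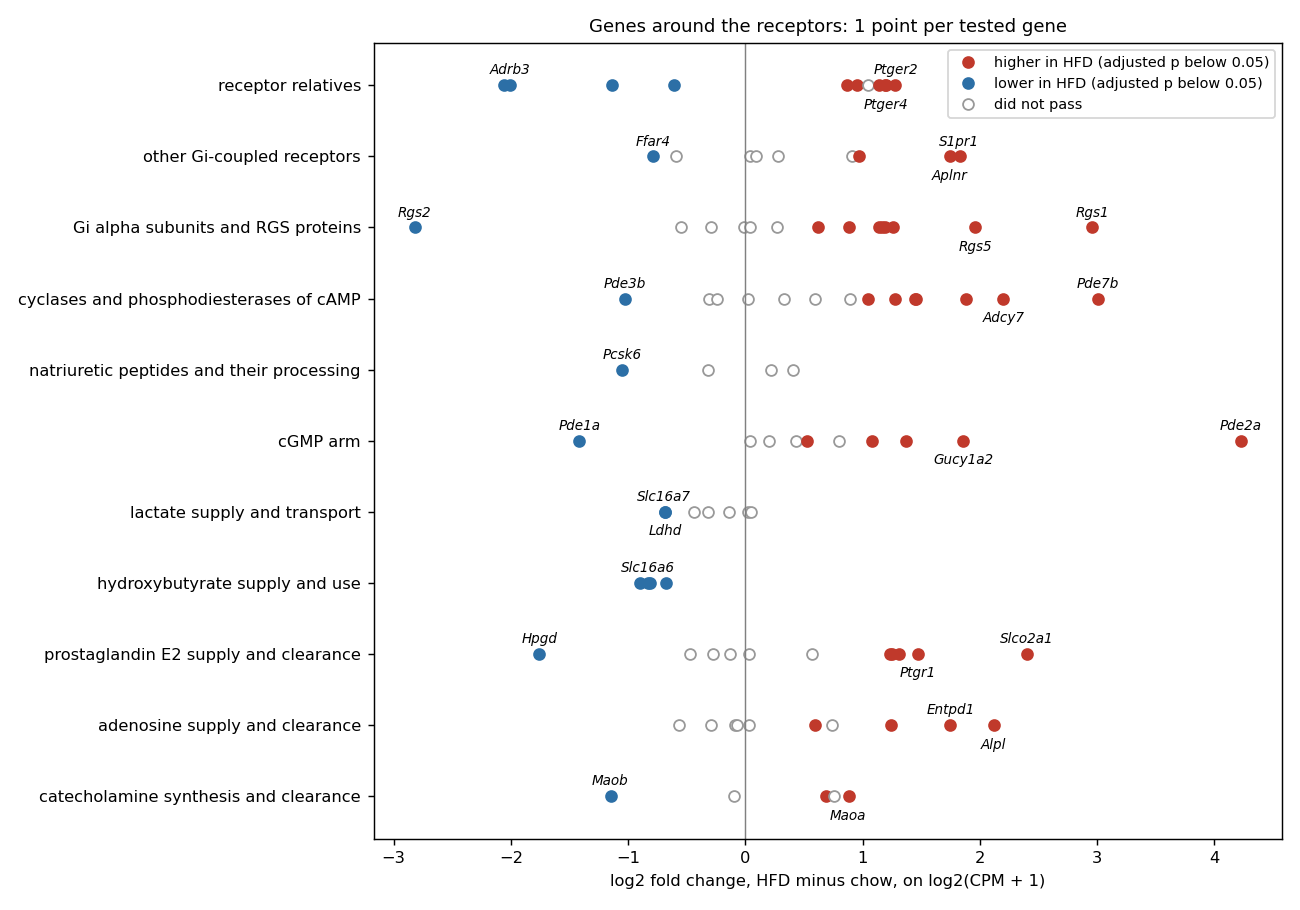
Log2 fold change of HFD minus chow (horizontal axis) of each tested gene in the 11 lists around the receptors, red where higher and blue where lower at a limma adjusted p below 0.05, open where not passed. Pde2a (4.23) stands farthest to the right and Rgs2 (-2.82) farthest to the left.

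The proteins that carry the inhibitory signal are the Gi alpha subunits, and RGS proteins shorten G protein signals. Of 14 genes of this group, 8 were higher and 1 was lower (median 0.75). Without HFD replicate 2 the higher genes were 5, and at a mean of at least 5 CPM 4; without chow replicate 1 or 2 the lower genes were 2. The 3 inhibitory subunit genes Gnai1, Gnai2 and Gnai3, named after their values were seen, did not pass: Gnai1 stood at 842 ± 17.9 CPM in HFD and 1274 ± 409 CPM in chow (-0.55, limma adjusted p 0.063), Gnai2 at 179 ± 12.7 CPM in HFD and 148 ± 15.5 CPM in chow (0.27, limma adjusted p 0.127) and Gnai3 at 176 ± 15.9 CPM in HFD and 171 ± 22.3 CPM in chow (0.04, limma adjusted p 0.834; SD, n = 3 each). Gnao1, which encodes an alpha subunit of the related Go protein, was higher, with 46.6 ± 7.53 CPM in HFD and 19.3 ± 5.76 CPM in chow (1.26, limma adjusted p 0.00279; SD, n = 3 each; also named after its values were seen). Rgs2 had 8.75, 6.59 and 6.73 CPM in HFD replicates 1, 2 and 3, against 56.1, 32.4 and 105 CPM in chow replicates 1, 2 and 3 (-2.82, limma adjusted p 0.000358). Rgs5, also a pericyte marker, was higher (1.96, limma adjusted p 0.00333), and so was Rgs1, a leukocyte gene, with 9.71, 5.86 and 6.45 CPM in HFD and at most 0.138 CPM in chow.

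Of 14 cyclase and phosphodiesterase genes of cAMP, 7 were higher and 1 was lower (median 0.97). The one lower was Pde3b, the phosphodiesterase through which insulin restrains lipolysis, with 704, 685 and 666 CPM in HFD replicates 1, 2 and 3, against 1351, 1201 and 1675 CPM in chow replicates 1, 2 and 3 (-1.03, SE 0.15, limma adjusted p 0.00103). Pde7b had 25.8 ± 5.23 CPM in HFD and 2.40 ± 1.10 CPM in chow (3.01, limma adjusted p 5.22e-05), and Adcy7, a cyclase gene common in blood cells, 95.2 ± 42.3 CPM in HFD and 19.4 ± 6.86 CPM in chow (2.20, limma adjusted p 0.000852; SD, n = 3 each).

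Of 11 tested relatives of the receptors 6 were higher and 4 lower (median 0.95), and with quantile normalization or at a mean of at least 5 CPM 3 were higher. Adrb3, the beta-adrenergic receptor gene of fat cells that raises cAMP, had 449, 280.1 and 276 CPM in HFD replicates 1, 2 and 3, against 1269, 1060.1 and 1687 CPM in chow replicates 1, 2 and 3. Its log2 fold change of -2.01 (SE 0.23, limma adjusted p 0.000225) is thus close in size to that of Hcar1, although one receptor raises and the other lowers cAMP. The planned ratio of Adrb3 to Adra2a could not be formed. Of 9 other Gi-coupled receptor genes 3 were higher and 1 was lower (median 0.28). The higher count was 1 without HFD replicate 1, with voom weights or at a mean of at least 5 CPM, and 5 with the adipocyte marker scaling, under which 0 were lower. S1pr1 (1.83, limma adjusted p 0.00336) and Aplnr (1.75, limma adjusted p 0.0128, lost without HFD replicate 1 at 0.0523, with voom weights at 0.0547 and on the deposited log2 CPM at 0.0866), both of endothelium, were higher, and Ffar4, a receptor gene for long-chain fatty acids, was lower (-0.79, limma adjusted p 0.01; -0.43, adjusted p 0.101, with the adipocyte marker scaling). Sucnr1, the succinate receptor gene, which also restrains lipolysis, stood at 108 ± 5.33 CPM in HFD and 105 ± 3.88 CPM in chow (0.04, limma adjusted p 0.812; named after its values were seen). Of the 5 catecholamine genes tested, 2 were higher and 1 was lower. Of the amine oxidase genes, Maoa was higher (0.88, limma adjusted p 0.00237) and Maob lower (-1.15, limma adjusted p 0.00112).

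For every listed receptor gene but Npr1 the diets did not overlap, as held for 50.2% of all tested genes. A high correlation with such a gene can thus reflect a difference between diets that both genes share. Across the 6 libraries, the genes whose log2(CPM + 1) followed Hcar1 most closely among 8548 genes were Nfia and Pde3b, with a Pearson r of 0.999 each. Those closest to Ptger3 were Gatsl3 (0.998) and Colgalt1 (0.997), to Adora1 Nuak1 (0.997) and Gxylt1 (0.996), and to Npr3 Tpm3 (0.992). For Hcar2 they were Chst15 (0.986) and Pik3ca (0.981), and for Npr1 Ercc6 (0.982) and Atp13a1 (0.98). These coefficients describe 6 points that share libraries and depth, and were picked as the highest of many.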

How the data were processed

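The 6 RNA libraries of 13 samples were analysed; the 7 chromatin samples (3 chow and 2 HFD for H3K27ac, 1 per diet for PPARG) were not used here. Per the labels' protocols, ribosome-bound RNA was depleted of ribosomal RNA and made into Nextera XT libraries, which do not mark strand. Among tools, the submitters' processing notes list featureCounts, HISAT2, edgeR and Picard, with the build mm10, but no versions or roles. The authors deposited log2 CPM with 2 decimals, relative to an effective library size; that they are log2 was read from the values, whose anti-logs sum to 984422 to 1182123 per library.

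Values were turned back into CPM, and log2(CPM + 1) was fitted with limma 3.58.1 in R 4.3.3 (diet only, eBayes with trend, two-sided) over the 11643 of 11761 rows with a mean of at least 1 CPM, with Benjamini-Hochberg adjustment over all of them. A symbol with several rows was read from its most abundant row. Read numbers came from the steps between low values, of which 100% under 20 reads were whole within 0.1 of a read. Each library's size was chosen so that nearly all of these values were whole, so the 100% is no independent check. Counting error was at most 8.41% for any receptor value and covers counting only. Because the unit is a log value, voom weights on these reads replaced a count test. The code was tested on simulated data. Alternatives covered the pseudocount, filter, scaling, trend, weights, a replicate block and each library left out. "Adipocyte marker scaling" sets the median of 18 adipocyte markers equal between libraries. Members, lists and tests were chosen with earlier results of these data known. Named genes are the receptors, Adrb3, Npr2, up to 2 called genes per direction and list, and the 2 genes most like each receptor; not every gene under this rule is reported. Sequences and positions are from RefSeq (GRCm38.p6).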

Additional observations from a re-analysis of the deposited data

How the results depend on the processing

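Hcar1, Ptger3 and Adora1 kept direction and call under all 17 alternatives. Hcar2 lost its call with equal totals (-0.47) and the adipocyte marker scaling (-0.23), and ranged from -0.75 to -0.42 with 1 library left out; the genes called lower among the receptors were then 1 (1 or 2 with a library left out), and those called higher 2 or 3. Npr3 passed with equal totals (0.51), quantile normalization (0.78) and the adipocyte marker scaling (0.77), and ranged from 0.32 to 0.54 with 1 library left out. Npr1 ranged from 0.09 to 0.60 and passed in none of them. The Npr1 to Npr3 difference ranged from -0.32 to 0.24, with 0.24 and 0.12 of opposite sign, and the Ptger3 to Hcar1 difference from 3.90 to 4.24. Over all genes, the adipocyte marker scaling gave 3487 higher and 499 lower; with 1 library left out 1683 to 2102 were higher and 1162 to 1740 lower, the lowest without HFD replicate 3. Over the lists around the receptors, 25 were higher at a mean of at least 5 CPM, where fewer genes were tested. Under the adipocyte marker scaling 50 were higher and 9 lower, and with 1 library left out 29 to 41 were higher and 16 to 19 lower. For 30 genes (Npr2, Adrb3 and those named from the lists by their calls, without those named after their values were seen or for their likeness to a receptor), 485 of 504 alternative values kept direction and call, 19 lost the call and 0 reversed; the cause was not tested.

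The replicate numbers are shared between diets, but the labels do not say what they mark: same-numbered libraries had deviations correlated at 0.09 to 0.43, and 5 of 6 libraries were closest to their own number. A replicate block changed no call among the receptors (Hcar2 -0.575, adjusted p 0.0216; Npr3 0.40, adjusted p 0.131), and gave paired differences of -0.09 and 4.04 for the ratios. The ratio of Adrb3 to Adra2a was not run, since Adra2a has no row. Depth limits chow replicate 3 most, where 3 reads equal 0.404 CPM; genes near that level, such as Rgs1, Alpl and Ptger2, have fold changes that depend on the pseudocount.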
